A study of Mus musculus with 8 samples.

Results

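The region described here is a stretch of mouse chromosome 7 between Ube3a and Snrpn whose minus strand was bright in newborn cortex, chr7:66930001-67060000 in genome build mm9. Its members were all probes of the array that read the minus strand and start within this span, without the bins chr7:66940001-66950000 and chr7:67050001-67060000, in which both strands were bright. This gave 854 of the 53834 distinct probes, 545 of them custom probes of 60 bases laid at steps of 110 bp and 309 of them catalogue probes of 45 to 60 bases. The span was chosen by its brightness on the wild-type arrays, and the bins left out by the brightness of both strands, so the wild-type levels and the low plus-strand levels below are descriptions and were not tested. The same wild-type arrays also enter every comparison against wild type. Choosing a span for its brightness there favours a lower value on the other arrays, and the size of this bias was not measured.

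Cortical RNA of newborn (P0) C57BL/6 mice was hybridised to 8 arrays that lay on 1 slide. The mutant genotypes were del +/s-u, a paternally inherited deletion from Snrpn to Ube3a, called the paternal deletion (n = 1), and del s-u/+, the same deletion inherited from the mother, called the maternal deletion (n = 1). They also included the maternal deletion joined to a deletion of the Snrpn promoter on the paternal chromosome, called the double deletion (n = 2, one labelled del s-u/0.9 and the other del s-u/4.8). They were set against wild-type (WT) cortex (n = 2), a littermate of each single deletion, and polyA RNA purified from the RNA of both WT samples was hybridised as well (n = 2). For each double-deletion sample the title and the genotype label name opposite promoter deletions, so the samples are called replicates 1 and 2 and neither value is given to a named promoter deletion. How many animals stand behind a sample is not given. First-strand cDNA was labelled, and a minus-strand probe here reports RNA made from the minus strand.

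The interval between Snrpn and Ube3a is imprinted. Its minus strand gives rise to a long non-coding transcript, Snhg14, which starts near Snrpn on the paternal chromosome, runs in neurons as far as the antisense strand of Ube3a (Ube3a-ATS), and carries in its introns tandem arrays of box C/D snoRNA genes, Snord116 nearer to Snrpn and Snord115 nearer to Ube3a. The snoRNAs are trimmed out of spliced introns, and in humans loss of the paternal SNORD116 array is linked to Prader-Willi syndrome. Ube3a, a ubiquitin ligase gene on the plus strand, is expressed from the maternal chromosome in neurons and is the Angelman syndrome gene.

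No gene is assigned to the probes in the files, and mm9 gene models were not used here. A RefSeq gene table of a later build, GRCm38.p6, was read only for the order of neighbours. In it, 134 snoRNA entries, with a median length of 79 nt, lie between the start of Ube3a and the start of Ipw, a spliced non-coding RNA of the locus. A further 70 snoRNA entries, with a median length of 94 nt, lie between the start of Ipw and Snord64, another box C/D snoRNA. Of these 70, 18 carry Snord116 in their symbol or synonyms. Snord64 is followed by Snurf and Snrpn, which share a transcript encoding the small SNURF protein and the spliceosomal protein SmN. Of 12 listed genes of the locus, 9 had an entry in the RefSeq promoter table.

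The starts of the Snrpn transcript are shown because the double deletions were made in the paternal Snrpn promoter. Which start gives rise to the plateau's RNA was not measured. RefSeq lists 4 Snrpn starts, each given as 250 bases before and 50 bases after the start, on the minus strand of GRCm38.p6. The labels do not say which of them the promoter deletions cover. The first window below is shared with Snurf (chr7:60005150-60005449, 7 CG dinucleotides) and the second with Snhg14 (chr7:60450128-60450427, 2 CG dinucleotides). Capitals mark ACGCATGCGT, the longest run of bases that all 4 windows hold.
Snrpn and Snurf start: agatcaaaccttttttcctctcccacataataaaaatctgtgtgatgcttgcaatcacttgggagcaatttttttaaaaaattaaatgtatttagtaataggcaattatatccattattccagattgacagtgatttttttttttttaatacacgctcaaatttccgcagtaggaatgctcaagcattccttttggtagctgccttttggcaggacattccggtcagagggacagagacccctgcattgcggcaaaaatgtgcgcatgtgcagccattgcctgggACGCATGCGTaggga
Snrpn and Snhg14 start: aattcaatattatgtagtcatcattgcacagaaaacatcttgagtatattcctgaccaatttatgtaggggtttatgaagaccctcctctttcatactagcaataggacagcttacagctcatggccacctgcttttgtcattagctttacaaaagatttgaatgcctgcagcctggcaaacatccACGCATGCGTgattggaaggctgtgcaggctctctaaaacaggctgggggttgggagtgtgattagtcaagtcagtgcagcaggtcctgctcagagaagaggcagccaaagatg
The run of 10 letters reads the same on both strands, and 33 of the 32817 distinct promoter windows (0.101%) hold it. It was found by comparing the windows and says nothing by itself about a factor that may bind there.

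Levels are given as log2 signal relative to the 75th percentile of the probes outside the tiled locus on the same array, so that a value of 0 is the level of that percentile. Over the custom probes the minus strand averaged 0.71 in the paternal deletion, 5.17 in the maternal deletion, 2.22 and 3.89 in double deletions 1 and 2, 3.43 and 3.34 in polyA RNA of WT 1 and WT 2, and 5.54 and 5.52 in total RNA of WT 1 and WT 2. The paternal deletion was the lowest array, the maternal deletion lay just under both WT arrays, and the double deletions and polyA RNA lay between. The catalogue probes gave the same order, with 0.51 in the paternal deletion, 4.70 in the maternal deletion, 1.83 and 3.42 in the double deletions, 3.03 and 2.96 in polyA RNA, and 5.04 and 5.03 in WT total RNA.

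In raw units the median red intensity of the members was 158 in the paternal deletion, 4972 in the maternal deletion, 524.5 and 1757.25 in the double deletions, 552.75 and 505.75 in polyA RNA, and 6070.5 and 5827.25 in WT total RNA. The local background median was 34 to 38 on all arrays. Every custom member was well above background on every array, apart from the paternal deletion, where 99.6% were. The opposite plus strand stayed low, with custom means of 0.31 in the paternal deletion, 0.44 in the maternal deletion, 0.30 and 0.39 in the double deletions, 0.60 and 0.58 in polyA RNA, and 0.51 and 0.42 in WT total RNA.

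**Figure D1:**
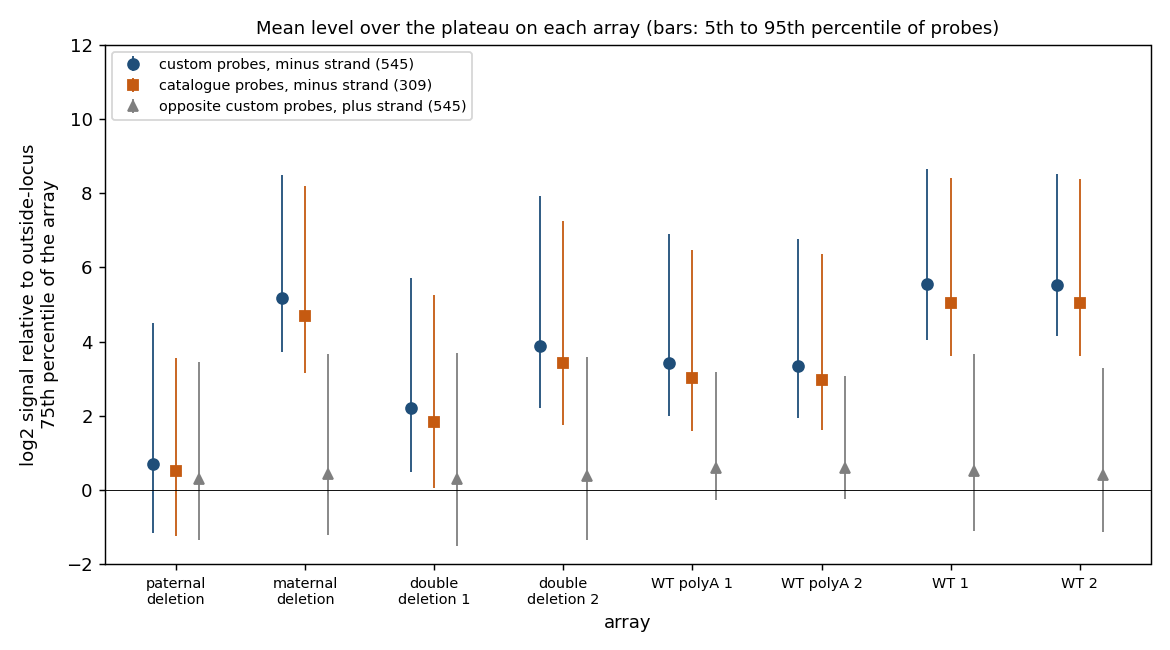
Mean log2 signal of the plateau relative to the outside-locus 75th percentile (vertical axis) on each of the 8 arrays (horizontal axis), for custom probes, catalogue probes and the opposite plus-strand probes, with bars from the 5th to the 95th percentile of probes. On the minus strand the custom mean is 0.71 in the paternal deletion and 5.54 and 5.52 in WT, while the plus-strand means lie between 0.30 and 0.60 on all arrays.

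Along the span, 7 of the 10-kb bins held probes and 4 held none on either strand, leaving a gap of 50.1 kb between 2 neighbouring probe starts. The level was even along the rest. The 7 custom bin means ran from 0.14 to 1.05 in the paternal deletion, from 4.99 to 5.35 in the maternal deletion, from 1.86 to 2.44 in double deletion 1, from 3.69 to 4.11 in double deletion 2, from 3.14 to 3.62 over both polyA arrays, and from 5.36 to 5.72 over both WT total RNA arrays. No bin of the paternal deletion reached any bin of another array.

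The nearest custom probes on either side of each border had unlike levels. At the lower end, the first custom member (chr7:66930085-66930144) had -0.59 in the paternal deletion and 5.55 in WT, while the probe just outside it (chr7:66929975-66930034) had 8.21 in the paternal deletion and 8.10 in WT. At the upper end, the last member (chr7:67049946-67050005) had -0.67 in the paternal deletion and 5.65 in WT, and the next probe outside (chr7:67050056-67050115) had 0.68 in the paternal deletion and 8.67 in WT. The custom probes of the left-out bins averaged 4.02 and 5.97 in the paternal deletion and 5.39 and 6.73 in WT, with a plus strand of 4.82 and 3.65 in the paternal deletion and 4.87 and 3.61 in WT. These values are given because the bounds of the span decide the members. Members inside the span had levels like those of the probes just outside. The member at chr7:66932505-66932564 had 7.79 in the paternal deletion and 7.75 in WT. The member at chr7:67047526-67047585 had 0.19 in the paternal deletion and 8.67 in WT. The steps at the borders therefore do not mark where the signal of the plateau ends.

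**Figure D2:**
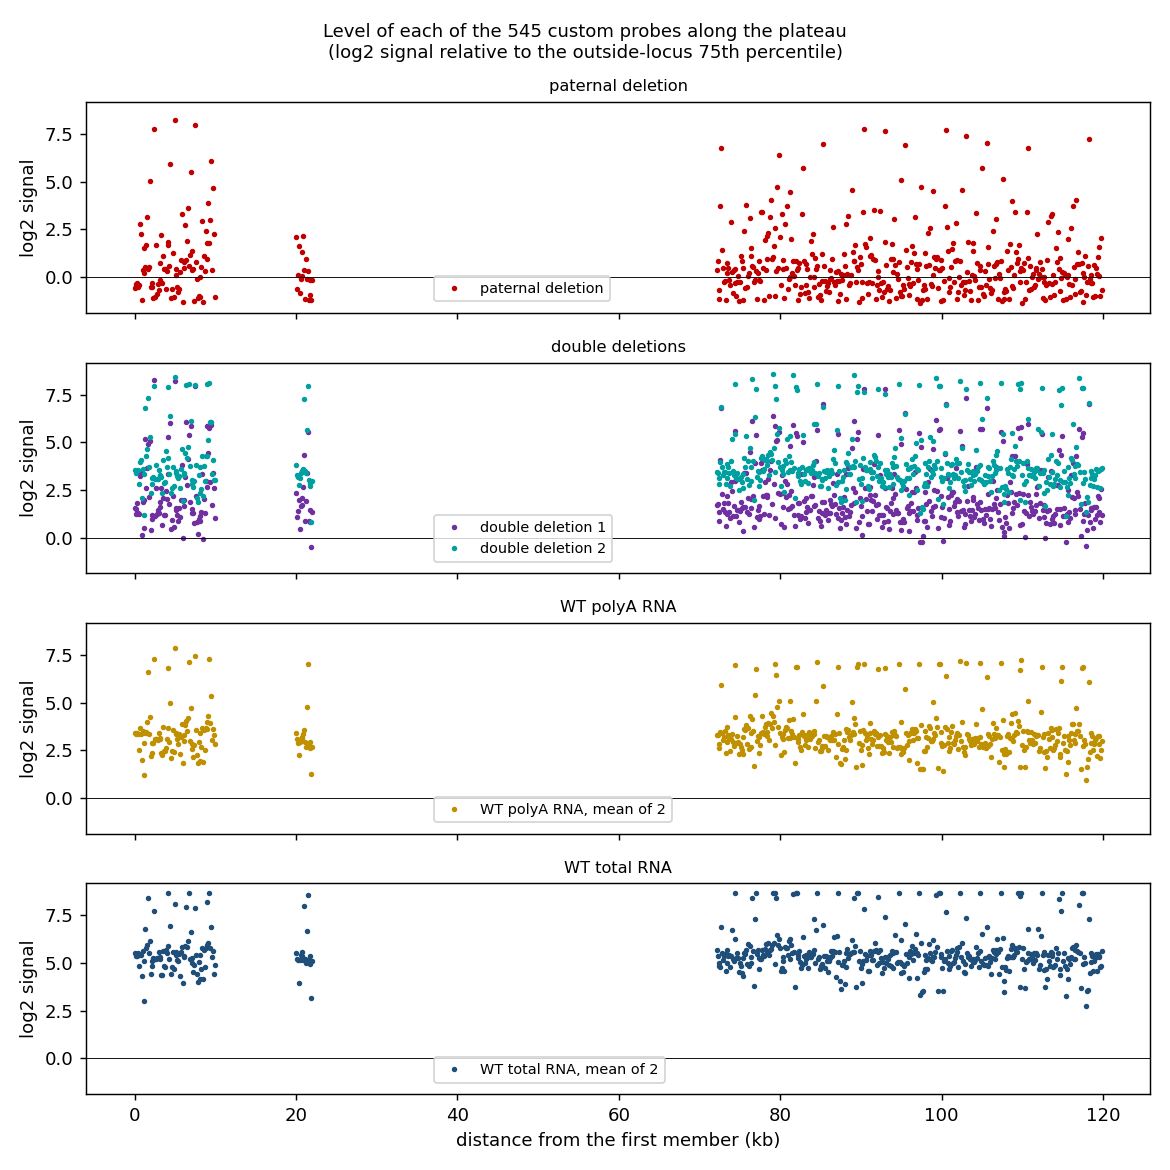
Log2 signal of each of the 545 custom probes (vertical axis) by distance from the first member in kb (horizontal axis), in the paternal deletion, both double deletions, WT polyA RNA and WT total RNA. The empty stretches are the first left-out bin and the 50.1-kb gap without probes, and single probes near 8.65 in WT recur at regular steps.

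The paternal deletion asks how much of the plateau's RNA comes from the paternal chromosome. The plateau fell by 4.82 on the log2 scale, a 28.3-fold fall, to 0.71 in the paternal deletion, against 5.53 ± 0.02 in WT (SD, n = 2), with an SE of 0.05 and an adjusted p = 6.68e-05 in limma with Benjamini-Hochberg adjustment over 350 bins. With 1 sample in the paternal deletion, the test assumes that this sample varies like the WT pair. All 7 bins of custom probes were called lower, where 20.2% of all custom bins were. Of the 854 members 831 were called lower, where 14% of all probes tested were. The size moved with the scale and the background: the fall was 11.9-fold (-3.57) on the 75th percentile of all probes, 15.7-fold (-3.97) with quantile normalization and 46.5-fold (-5.54) with background-subtracted signals. The catalogue probes fell by 4.52, and all 7 of their bins were called lower, where 16.9% of all catalogue bins were. With the double deletions taken as replicates of 1 group, whose spread then enters every test, the same difference had an adjusted p = 0.122 and no bin or member was called. In that fit none of the 49997 probes tested was called for this comparison, so the lack of calls was not particular to the plateau. The plateau lies between Snrpn and Ube3a, so by its label this deletion removes the plateau's own sequence from the paternal chromosome. Whether the share of cells that make this RNA also differed was not measured in this bulk tissue.

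The depth of this fall is a lower limit for the brightest members. In both WT arrays 28 members, 23 of them custom, were saturated. For these the WT signal was at least 57.1-fold to at least 357.6-fold that of the paternal deletion, with a median of at least 251.4-fold. Their levels in the paternal deletion ran from 0.19 to 2.84. The largest fall among custom members was at chr7:67047526-67047585, where the level was 0.19 in the paternal deletion and 8.65 and 8.69 in WT, a difference of at least 357.6-fold. Without the probes saturated on any array the plateau fell by 4.64.

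The maternal deletion, which removes the same interval from the other chromosome, left the plateau bright. Its mean was 5.17, against 5.53 ± 0.02 in WT (SD, n = 2), a difference of -0.36 (SE 0.05, adjusted p = 0.0186 in limma), or 1.28-fold lower. There is 1 maternal-deletion sample, the spread is that of the WT pair alone, and how far another sample of this genotype would lie from it was not measured. Choosing the span on the WT arrays also favours a lower value here, which weighs more on a small difference. All 7 custom bins were called lower, with differences from -0.39 to -0.35, where 5.9% of all custom bins were. With quantile normalization the difference was -0.28 and 5 of 7 bins were called, and the share of all bins called there was not counted. At the level of single probes 20 of 854 were called lower, where 1.2% of all probes were, and 444 (52%) were lower at an unadjusted p under 0.05, as were 8.49% of all probes. The sign was negative in 827 members and positive in 27, and the median over members was -0.36 where it was -0.07 over all probes tested. These signs come from 1 array of this genotype and are not independent, and the share of negative signs over all probes was not counted. With the double deletions as 1 group the plateau's call was lost (adjusted p = 0.960).

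Set against each other, the deletions by parent of origin compare the same lost interval on either chromosome. The difference itself uses neither WT array, but its SE and p do, since there is 1 sample on each side. The plateau was at 0.71 in the paternal deletion and at 5.17 in the maternal deletion, a difference of -4.46 (SE 0.05, adjusted p = 0.000131 in limma), 22.0-fold. All 7 custom bins were called lower in the paternal deletion, where 26.1% of all custom bins were, and so were 829 of 854 members, where 16.7% of all probes were. The test assumes that both samples vary like the WT pair, since their own spread was not measured. When the 2 double-deletion samples were treated as replicates, the adjusted p was 0.187.

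The double deletion asks what the paternal Snrpn promoter deletion adds when the interval is already missing from the maternal chromosome. The plateau had 2.22 and 3.89 in double deletions 1 and 2, against 5.17 in the maternal deletion and 5.54 and 5.52 in WT. Both double-deletion samples lay under all 3 of these arrays and over the 0.71 of the paternal deletion. Their mean was lower than the maternal deletion by 2.11 on the log2 scale (adjusted p = 0.000981 in limma), a 4.33-fold difference. The SE of 0.05 leaves out the gap between both samples. With that gap in the spread the SE was 0.82 and the adjusted p = 0.493. In the fit without it all 7 custom bins were called lower, where 18% of all custom bins were. Of the members 823 were called lower, where 15.5% of all probes were.

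Against WT the mean of the double deletions differed by -2.47 (SE 0.04, adjusted p = 0.000261 in limma), 5.56-fold. All 7 custom bins were called lower, where 24.2% of all custom bins were, and so were 835 members, where 20.9% of all probes were. Against the paternal deletion it was higher by 2.35 (SE 0.05, adjusted p = 0.000594), 5.09-fold. There all 7 custom bins were called higher, where 31.2% of all custom bins were, with 790 members called higher, where 17.7% of all probes were, and 4 members called lower. With the samples as 1 group these 2 comparisons had an adjusted p = 0.140 against WT and 0.364 against the paternal deletion. Against WT 39 members (4.57%) were then called lower, where 2.81% of all probes were.

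The 2 double-deletion samples differed from each other by more than the WT arrays did. Sample 1 differed from WT by -3.31 and sample 2 by -1.64. From the maternal deletion they differed by -2.95 and -1.28, and from the paternal deletion by 1.51 and 3.18. Replicate 2 was above replicate 1 in 844 of 854 members, with a median gap of 1.76 on the log2 scale, while the plus strand opposite the plateau had 0.30 and 0.39. The WT arrays differed by 0.03 in the same mean. Members of 1 array are not independent, and the share of all probes with replicate 2 above replicate 1 was not counted. The 2 samples were labelled with different promoter deletions, so the allele, the animal and the array cannot be told apart as the source of this gap, and it was not tested.

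PolyA RNA asks how much of the plateau's RNA carries a polyA tail. The plateau had 3.43 and 3.34 in polyA RNA of WT 1 and WT 2, against 5.54 and 5.52 in total RNA of the same samples. Its mean was 3.38 ± 0.06 in polyA RNA and 5.53 ± 0.02 in total RNA (SD, n = 2 each), a difference of -2.15 (SE 0.05, adjusted p = 2.24e-05 in limma), 4.42-fold. Within the 2 pairs the differences were -2.12 and -2.17. All 7 custom bins were called lower, where 54.2% of all custom bins were, and so were 851 of 854 members, where 40.9% of all probes were.

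The size of the polyA difference depended on the scale. It was -0.45 with quantile normalization, -0.68 with background-subtracted signals, -0.80 on the 75th percentile of all probes and -2.96 on the median of the outside probes. The outside probes themselves were near background on the polyA arrays, with a median red intensity of 37 and 36.5 over a background of 34, against 53 and 51 over 38 and 37 on the WT total RNA arrays.

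A comparison within the same arrays is free of any constant set per array. The other bright minus-strand stretch of the locus, chr7:66600001-66870000 with 2454 custom probes, lies nearer to Ube3a. The polyA minus total difference was -2.15 in the plateau and -3.72 in that stretch, a gap of 1.57 (SE 0.09, adjusted p = 0.000133 in limma). So the plateau's signal was less reduced in polyA RNA than that of the other stretch, on a comparison chosen after the data were seen. The same contrast for the paternal deletion against WT was -4.82 in the plateau and -5.13 in the other stretch, and that gap of 0.31 did not pass (adjusted p = 0.0934). For the maternal deletion against WT the 2 stretches had -0.36 and -0.15, and the gap of -0.21 did not pass (adjusted p = 0.240). The double deletion had gaps of -0.18 against WT and 0.03 against the maternal deletion, which did not pass either (adjusted p = 0.142 and 0.840). Past the threshold were the paternal against the maternal deletion, with -4.46 in the plateau and -4.97 in the other stretch (gap 0.52, adjusted p = 0.0463), and the double against the paternal deletion, with 2.35 and 2.83 (gap -0.49, adjusted p = 0.0297). Their spread is that of the WT pair.

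The members were not a smooth band. In the 435 custom probes above the gap, the levels repeated along the DNA at a step of 2530 bp, which is 23 probe steps. The correlation between probes this far apart in the mean of both WT arrays was 0.74 over 412 pairs of probes, and it was 0.70 at 5060 bp and 0.72 at 7590 bp. The next highest of the 73 distances examined had 0.14. These are correlations across probes of the same arrays, which are not independent replicates, and they carry no test.

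The same step was the highest on every array, with 0.47 in the paternal deletion, 0.74 in the maternal deletion, 0.57 and 0.69 in the double deletions and 0.71 and 0.71 in polyA RNA. In the first bin of the plateau it was 0.85 over 68 pairs in WT. The plus strand opposite the plateau repeated at 2530 bp too, with 0.79. The other bright stretch of the locus peaked at 1870 bp instead, with 0.73 over 2437 pairs. Probes of near-identical repeats can pick up RNA from any copy. No probe sequences were at hand, so whether the level of a probe is that of its own copy alone was not tested.

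**Figure D3:**
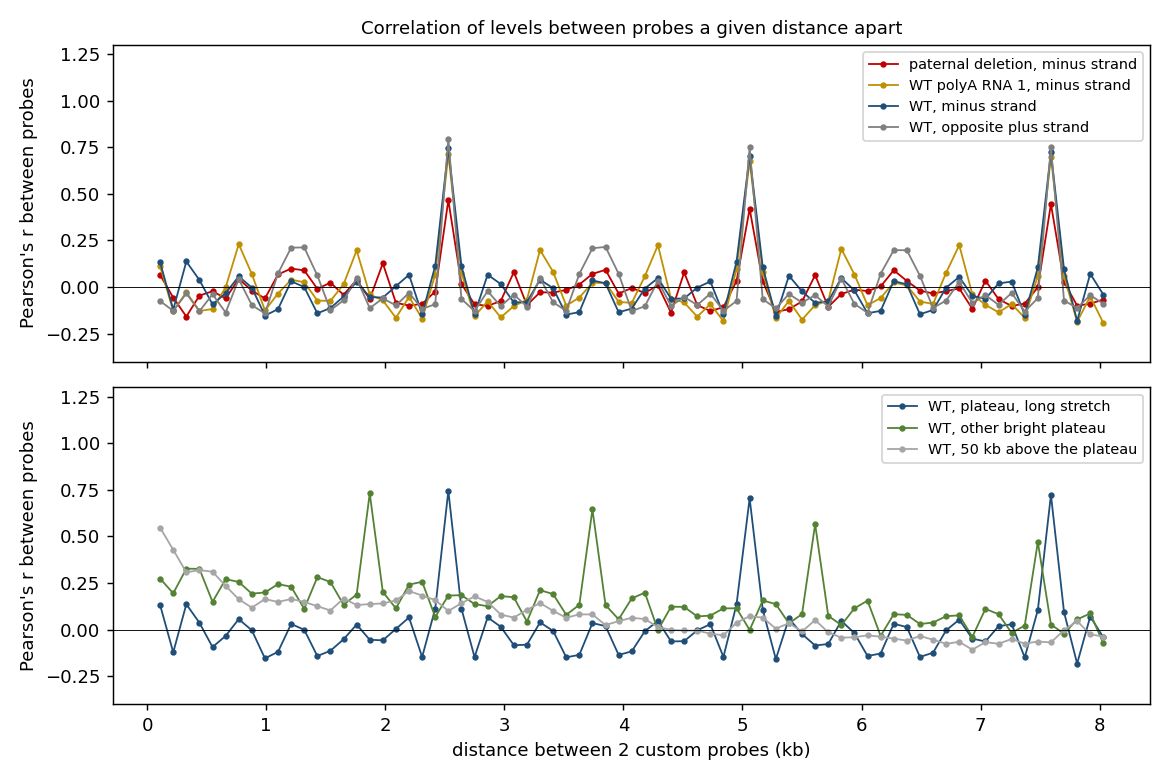
Pearson's r between the log2 levels of custom probes (vertical axis) by the distance between them in kb (horizontal axis). The upper panel shows the paternal deletion, WT polyA RNA 1 and WT on the minus strand and WT on the plus strand of the plateau, all with peaks at 2.53 kb and its multiples, and the lower panel shows that in WT the other bright stretch peaks at 1.87 kb and the 50 kb above the plateau have no such peaks.

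When the 435 probes were lined up by their position within the 2530-bp unit, 23 positions with 18 or 19 probes each were obtained. Position accounted for 44.7% of the variance between probes in the paternal deletion and for 72.8% in the mean of WT. Probes differ in how well they bind, so signals at different positions of 1 array are not RNA levels to be ranked, and the values below are for comparison between arrays at 1 position. Positions are counted from 0 at the first custom probe above the gap, a start that is arbitrary. The positions described next were picked for description after the values were seen.

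Position 2310 had the highest signal. It had 0.48 in the paternal deletion, 8.50 in the maternal deletion, 5.50 and 7.92 in the double deletions, 7.01 and 6.89 in polyA RNA, and 8.64 and 8.66 in WT total RNA. Of its 18 probes 15 were saturated in both WT arrays, and their range in WT was only 8.43 to 8.67, so copies cannot be ranked there. In the paternal deletion the same 18 probes ran from 0.19 to 0.87. No probe of the paternal deletion came near any WT value at this position.

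Position 1870 behaved differently in polyA RNA. It had 0.57 in the paternal deletion, 7.003 in the maternal deletion, 3.79 and 6.16 in the double deletions, 3.73 and 3.47 in polyA RNA, and 7.30 and 7.06 in WT total RNA. Its polyA minus total difference was -3.58. At the 20 positions without a probe saturated in both WT arrays this difference ran from -2.27 to -1.42. At positions 2310 and 2200, where total RNA was partly saturated, the measured -1.69 and -2.04 may be understated and are not ranked. The 3 custom members with the largest measured polyA difference had 3.68, 4.03 and 4.12 in polyA RNA and 8.35, 8.66 and 8.64 in total RNA. The first of them, at chr7:67044556-67044615, had 3.87 and 3.49 in polyA RNA against 8.48 and 8.22 in total RNA. Total RNA at the other 2 was at or near saturation, so their differences may be understated.

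Position 2200 was also bright in WT, with 0.24 in the paternal deletion, 3.48 and 5.69 in the double deletions, 4.92 and 4.86 in polyA RNA and 6.96 and 6.90 in WT total RNA. Its copies were uneven, running from 5.06 to 8.67 in WT. The lowest signal was at position 220, with -0.77 in the paternal deletion and 4.22 in WT. The lowest single custom members had WT levels of 2.77, 3.02 and 3.15, so every member lay above 2 in WT.

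Position 550 was the one at which both strands were bright on average. On the minus strand it had 4.83 in the paternal deletion, 6.11 in the maternal deletion, 4.99 and 5.58 in the double deletions, 5.12 and 4.72 in polyA RNA, and 6.33 and 6.36 in WT total RNA. On the plus strand it had 6.79 in the paternal deletion and 6.98 in WT. Its 19 probes were uneven. On the minus strand they ran from 0.86 to 7.79 in the paternal deletion and from 4.47 to 7.83 in WT. On the plus strand they ran from 2.03 to 8.57 in WT. The other 22 positions had plus-strand WT levels from -0.75 to 1.81. Its difference of -1.51 in the paternal deletion was the smallest of all positions, and the next smallest was -3.44 at position 440.

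**Figure D4:**
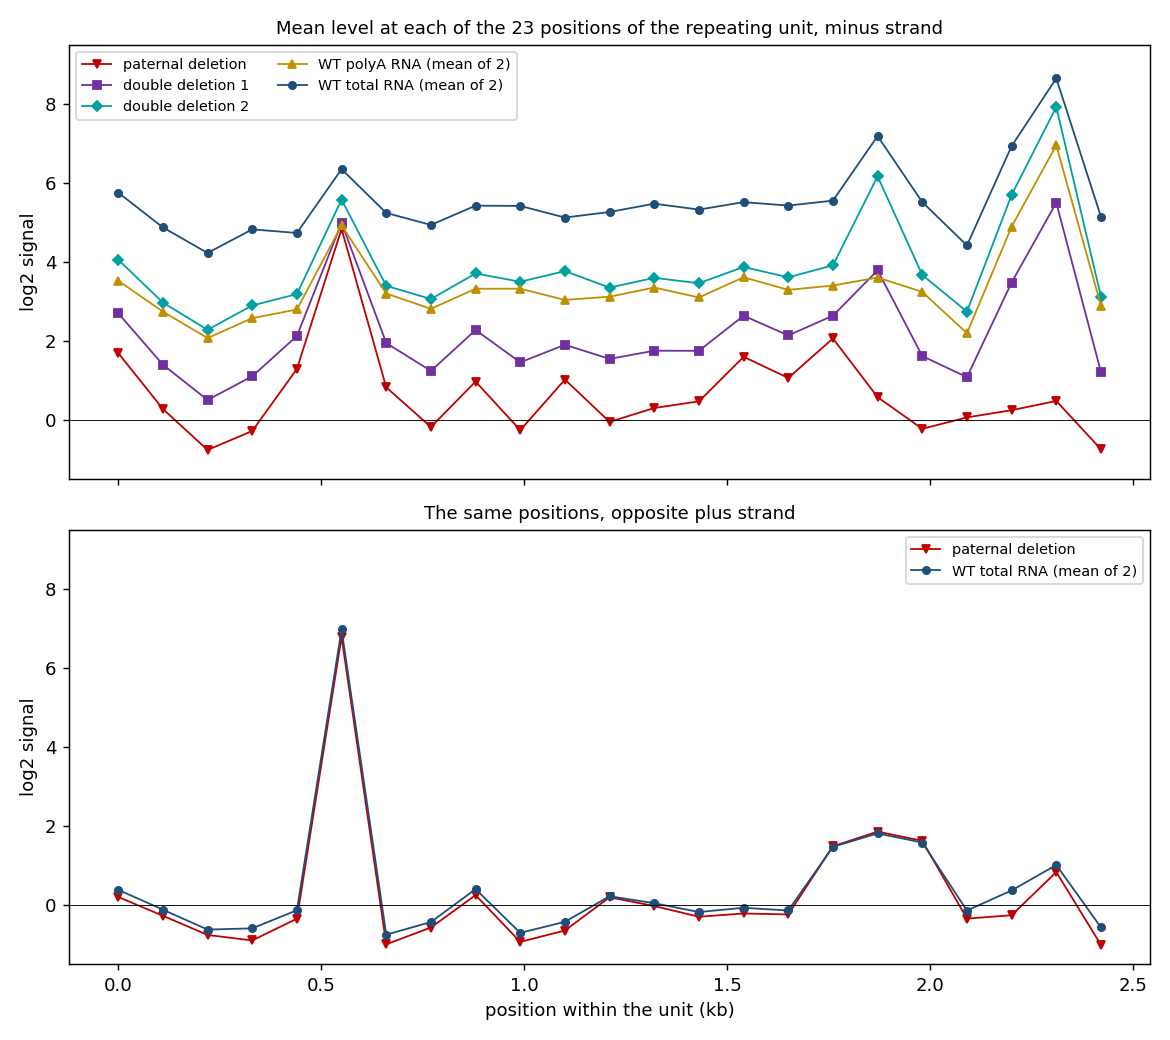
Mean log2 signal (vertical axis) at each of the 23 positions of the 2.53-kb unit (horizontal axis, kb), on the minus strand for the paternal deletion, both double deletions, WT polyA RNA and WT total RNA, and on the plus strand for the paternal deletion and WT. Position 2.31 kb is at 0.48 in the paternal deletion and 8.65 in WT, and at 0.55 kb both strands are bright in the paternal deletion and in WT.

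A small set of members differed least between the paternal deletion and WT. With a change above -1, a threshold set after seeing the data, there were 26 such members, 19 custom and 7 catalogue. Of these 23 were not called and 3 were called lower, and 5 of the 26 had changes under -0.5. For 14 of the 26 the opposite plus-strand probe was above 5 in WT, and for 12 it was not. Of the 13 custom ones above the gap, 11 sat at position 550. The 3 custom members with the smallest fall had 7.64, 7.05 and 8.23 in the paternal deletion and 7.43, 6.87 and 8.08 in WT. The first, at chr7:67022996-67023055, had an opposite probe with 8.21 in the paternal deletion and 8.46 in WT.

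The 7 catalogue members of this set lay in another part of the unit, between positions 128 and 172. They had 5.84 to 6.97 in the paternal deletion and 5.61 to 6.68 in WT, and their opposite probes had -1.03 to 0.10 in WT. They were bright on the minus strand alone in a genotype whose paternal interval is labelled as deleted. This was not particular to catalogue probes. The custom member at chr7:67009906-67009965, at position 110, had 6.40 in the paternal deletion and 6.28 in WT, with an opposite probe at -0.22 in WT. The other custom members of the set with an opposite probe at or under 5 had changes from -0.99 to -0.79. What these members report was not tested.

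The custom probes were then split by their opposite probe as a description. The 526 with an opposite probe at or under 5 in WT averaged 0.53 in the paternal deletion, 5.12 in the maternal deletion, 2.09 and 3.80 in the double deletions, 3.34 and 3.27 in polyA RNA, and 5.50 and 5.47 in WT total RNA. The 19 with an opposite probe above 5 averaged 5.80 in the paternal deletion, 6.54 in the maternal deletion, 5.84 and 6.23 in the double deletions, 5.74 and 5.31 in polyA RNA, and 6.73 and 6.73 in WT total RNA. The array means of the 19 probes ran from 5.31 in polyA RNA of WT 2 to 6.73 in WT total RNA, with the paternal deletion at 5.80. Those of the 526 others ran over a wider range, from 0.53 in the paternal deletion to 5.50 in WT 1 total RNA, in the order given for the whole plateau.

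**Figure D5:**
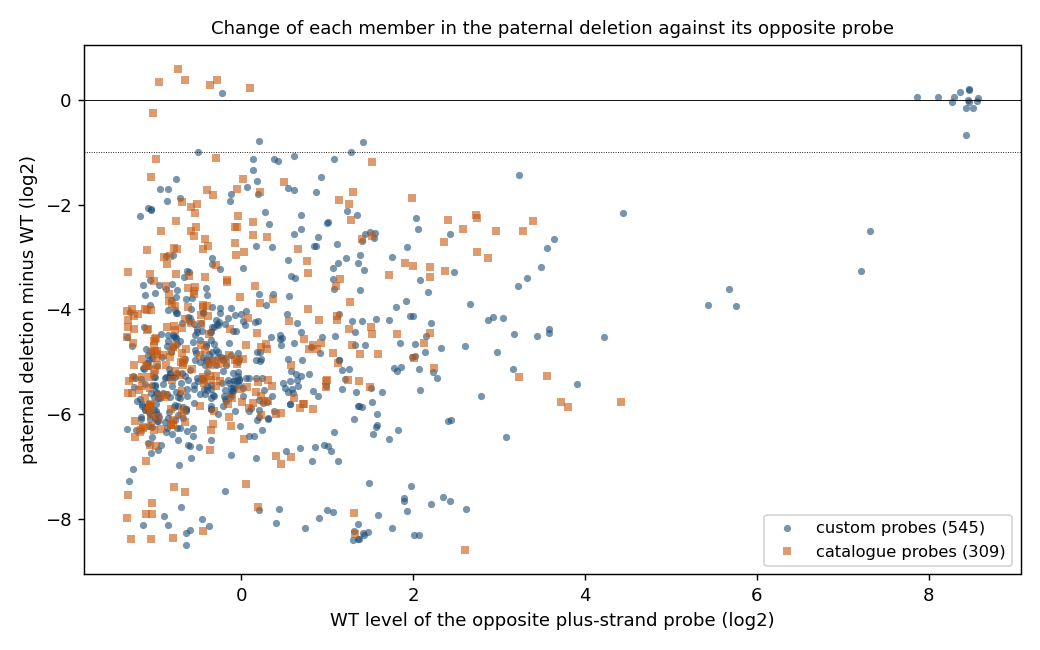
Paternal deletion minus WT (vertical axis, log2) for each of the 854 members against the WT level of its opposite plus-strand probe (horizontal axis, log2), with custom and catalogue probes apart and a dotted line at -1. A cluster of custom probes with opposite levels above 8 lies near 0, as do 7 catalogue probes whose opposite probes are at or under 0.10, while 831 of the 854 members were called lower.

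The catalogue and custom changes lay close to each other, with -4.52 and -4.82 for the paternal deletion, -0.34 and -0.36 for the maternal deletion, -2.41 and -2.47 for the double deletion against WT, and -2.04 and -2.15 for polyA RNA against total RNA. As for the custom probes, all 7 catalogue bins were called in the same direction in every comparison. The shares of all catalogue bins called in that direction were 12.7% for the maternal deletion, 41.2% for the double deletion against WT, 19.2% for the double against the maternal deletion, 31.8% for the paternal against the maternal deletion, 30.5% for the double against the paternal deletion and 22.9% for polyA RNA.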

How the data were processed

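Red-channel intensity per spot was deposited by the authors as scanner output, 1 array per sample, without normalization between arrays. Per the file headers it was made with Agilent Feature Extraction 10.7.3.1 on build mm9, and the submitters' processing notes name version 10.9. Per the labels' protocols, Cy5-labelled first-strand cDNA was primed with random hexamers and the median red intensity is the value. Intensities were background-corrected in limma 3.58.1 under R 4.3.3 (normexp, offset 50), put on the log2 scale and centred on the 75th percentile of probes outside chr7:65790585-67800765 (3338 probes). Control and outlier spots were left out, and spots of a probe averaged. Probes entered a fit if at least 1 of its levels had them well above background on each of its arrays. Bins of 10 kb per strand needed 3 tested custom probes, and the plateau's bins were 1 entry in the table, fitted with lmFit and eBayes (two-sided, Benjamini-Hochberg, threshold 0.05).

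The fit of the 6 total RNA samples took the double deletions as separate levels, so its spread rests on the WT pair. The polyA fit used the 4 WT samples. The design text says the polyA RNA was purified from the same samples, which pairs the numbers, and across 43784 probes the WT 1 minus WT 2 differences of polyA and total RNA correlated at 0.19. The WT samples are littermates of different mutants, and the double deletions are labelled with different promoter deletions. How many animals stand behind each sample is not given. The p-values of the total RNA fit measure the spread of the WT pair, moderated over the table by eBayes, and no spread between mutant samples. Those of the polyA fit measure the spread within the 2 total RNA and the 2 polyA arrays. The number of arrays limits precision. Fits were run on simulated data in which every sample varied like the WT pair, so the simulation cannot show whether the mutant samples do.

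The members, lists and rules were chosen with earlier results of these data known. Probes named were the 3 members with the highest and lowest WT mean, paternal change and polyA difference, and the borders. The cell type marker list could not be applied, since no file pairs probes with gene names. For probes saturated in both WT arrays, the mean WT value over the paternal value is a lower limit of the fold on the scale used. Alternatives were other scales, background corrections, filters and groupings. The authors' deposited series matrix holds 309 catalogue members, 0 custom members and 0 probes outside the locus, and its intensity medians per column were 75.41 to 105.79. It is the scanner intensity times a factor per array, on a basis not stated in the sources used, and it was not used in a test.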

Additional observations from a re-analysis of the deposited data

How the results depend on the processing

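The change of the plateau kept its direction in all 7 comparisons under each of the 17 alternatives per comparison, and stayed past the threshold or within the WT spread in 113. That count does not judge the size of a change. It includes the total RNA values without 1 WT sample, which carry no test and by construction could not leave the WT spread. It also includes settings that leave the value itself unchanged. The 6 outside that count came from taking the double deletions as 1 group. The value stayed at -4.82 for the paternal deletion against WT, -0.36 for the maternal deletion against WT, -2.47 for the double deletion against WT, -2.11 for the double against the maternal deletion, -4.46 for the paternal against the maternal deletion and 2.35 for the double against the paternal deletion, with adjusted p from 0.122 to 0.960. The gap between these 2 samples then enters the spread by construction. Under it 0 of 7 bins were called in those 6 comparisons. In 5 of them 0 members were called, and 0 of all 49997 probes tested were called as well. In the double deletion against WT 39 members (4.57%, against 2.81% of all probes) were called lower, where 835 were called otherwise. At an unadjusted p under 0.05 that fit gave 821 members lower (96.1%, against 14% of all probes) for the paternal deletion and 734 (85.9%, against 14.1%) for the double deletion against WT. On the 75th percentile of all probes 46 members were called for the maternal deletion, against 20. The share of all probes called on that scale was not counted, so this rise is not a result about the plateau. On that scale the change of every probe shifted up by 1.25 in the paternal deletion, 1.34 in polyA RNA and 0.47 in the double deletion against WT.

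Leaving out a replicate gave -4.83 to -4.81 for the paternal deletion against WT, -0.37 to -0.35 for the maternal deletion, -3.31 to -1.64 for the double deletion against WT, -2.95 to -1.28 against the maternal deletion and 1.51 to 3.18 against the paternal deletion, and -2.19 to -2.10 for polyA RNA. Leaving out 1 WT sample of the 6 left no residual degrees of freedom, so those values carry no test. With the replicate block the polyA difference was -2.15 (adjusted p = 8.59e-05) and changed no call of the plateau or its bins, with 853 members called lower (99.9%, against 42% of all probes). The gap of 1.57 between the plateau and the other bright stretch in polyA RNA ran from 1.49 to 2.04 under 16 alternatives, all past the threshold. The paternal change was -3.57 on the 75th percentile of all probes, -3.97 with quantile normalization, -5.54 with background-subtracted signals and -3.88 with the left-out bins put back. Quantile normalization left 5 of 7 bins called for the maternal deletion, without a count of the share of all bins called. The deposited series matrix gave no value for custom probes and was not run. Saturation limits the top of the scale, and signal over background limits the polyA arrays.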
